A study of Mus musculus with 17 samples.

Results

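The Notch pathway was followed through 10 genes in sorted mouse hematopoietic stem cells (HSCs): the receptors Notch1, Notch2 and Notch3, the ligands Jag1, Jag2 and Dll1, the DNA-binding factor Rbpj, the target genes Hes1 and Hey1, and the regulator Dtx1. All probe sets of the array annotated to one of these symbols alone were taken, which gave 19 of 45101 probe sets, for 10 of 18194 named genes. All 19 were above the lowest deposited value on at least 1 array and all were tested. The series concerns the role of C/EBPa, a transcription factor of the myeloid lineage, in adult HSC quiescence. RNA was measured on 17 arrays in 5 groups: 3 arrays of fetal liver HSCs at E15.5, 3 of control and 3 of C/EBPa KO (knockout) HSCs on day 7 after pIpC, and 4 of control and 4 of C/EBPa KO on day 21. Adult cells were sorted as lin-, sca1+, ckit+, CD150+ and CD48-, and fetal cells with low Mac-1 in addition. pIpC is an RNA duplex that provokes an interferon response, commonly injected to induce Mx1-Cre, but no Cre line is named in the labels. Controls are labelled wild type and received pIpC too. Titles and genotype field of the KO samples disagree: the titles read C/EBPa KO, the genotype field and the design read PU.1 knock-in (PU.1ki/ki). The groups follow the titles. No pIpC day is given for fetal liver, so developmental stage, tissue and pIpC cannot be told apart in the fetal comparison. Separate animals or pools are not stated for the replicates, and the p-values therefore cover the spread between these samples alone.

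In Notch signalling a ligand of the Jagged or Delta family on one cell binds a receptor on its neighbour, the receptor is cleaved by an ADAM protease and then by gamma-secretase, and its intracellular domain enters the nucleus. There it joins RBPJ and Mastermind co-activators and switches on genes of the HES and HEY families, which encode repressors of the basic helix-loop-helix class. In blood the pathway is best known for the emergence of HSCs in the embryo and for the choice of the T cell lineage, and it also shapes blood vessels. HES1 is in addition known to respond to signals other than Notch.

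Because of this conflict the genes of both factors were examined first, Cebpa for C/EBPa and Spi1 for PU.1. Cebpa intensity was 20.7 to 32 on the KO arrays of day 7 against 136 to 315 in control, and 25 to 39.8 against 115 to 532 on day 21, so that no KO array overlapped a control array of its day. In fetal liver Cebpa was 30.2 to 81, below all adult control arrays and overlapping the KO arrays. Spi1 intensity overlapped between KO and control on both days, at 126 to 623 over the adult control and KO arrays. The sources used here do not place the Cebpa probe set relative to the deleted sequence. Median intensity per array was 39.4 to 53.1, and the lowest deposited value, 16, was held by 20.4% to 25.2% of the probe sets of an array. Of the genes of the sort, Kit was between 441.9 and 905.3 on all arrays and Slamf1, which encodes CD150, between 37.76 and 1049. Cd48, against which the cells were sorted, was at 16 to 18.75 in control and 60.9 to 282.9 in KO on day 7, at 18.56 to 657.8 in control and 90.33 to 308.3 in KO on day 21, and at 99.48 to 210 in fetal liver, so that its transcript was above the lowest value on most arrays. On day 7 the KO and control arrays did not overlap for Cd48. Its part in the member results was not tested. Further, Procr, Mecom and Hlf of the HSC list were above the lowest value on all arrays. Itgam, which encodes a chain of Mac-1, was at the lowest value on all control arrays and on those of KO on day 21, at up to 19.87 in KO on day 7 and at up to 101.5 in fetal liver. Ly6a, which encodes Sca-1, was not analysed here under this name.

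Promoter sequences were available for 8 of the 10 genes, Hes1 and Hey1 not being among them, and were searched for the core of the RBPJ binding motif, TGGGAA or TTCCCA on its opposite strand, in the 250 bases before each annotated start. The motif occurred in 2 of 10 windows, overlapping windows of 2 starts of Rbpj that share 1 of the motifs, and in 21.6% of all 32851 mouse promoter windows in the RefSeq table. The window of the gene that encodes the motif's own binding factor is shown here, from RefSeq GRCm38.p6, chr5:53590096-53590345, plus strand, with the motifs in capitals. They start 149 bases (same strand) and 65 bases (opposite strand) before the annotated start. A match describes letters only, and no binding was measured in these samples.
Rbpj: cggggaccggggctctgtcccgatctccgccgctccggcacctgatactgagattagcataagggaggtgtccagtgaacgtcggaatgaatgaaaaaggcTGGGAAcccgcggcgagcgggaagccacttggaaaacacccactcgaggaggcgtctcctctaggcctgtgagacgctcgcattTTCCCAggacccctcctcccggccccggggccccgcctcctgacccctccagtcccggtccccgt

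Hes1 and Hey1, the repressor genes that serve as readouts of Notch activity in many tissues, were the members that differed most, and both fell in fetal liver HSCs relative to adult control HSCs. Hey1 was 12.3-fold lower (95% confidence interval 4.98 to 30.2) and Hes1 4.90-fold lower (2.76 to 8.68). Notch1 rose on 1 of its probe sets, 3.78-fold. Of the 19 member probe sets, 3 were called at an adjusted p under 0.05 (limma, Benjamini-Hochberg over all 40023 probe sets tested), 1 higher and 2 lower. Of all probe sets 3.07% were called, 1.46% higher and 1.61% lower. No member probe set was called in a comparison of KO with control.

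Hes1 was measured by 1 probe set, 1418102_at. Its intensity was 591, 217 and 192 on the 3 fetal liver arrays. In control it was 2870.4, 1055 and 1048 on day 7 and 1656, 1125, 1407 and 1388 on day 21. Every fetal array was below every adult control array, and control replicate 1 of day 7 stood far above the other 6 controls. The mean log2 intensity was 8.19 ± 0.89 (SD, n = 3) in fetal liver, 10.52 ± 0.84 (SD, n = 3) in control on day 7 and 10.43 ± 0.23 (SD, n = 4) in control on day 21. Against the mean of both control groups the log2 difference of Hes1 was -2.29 (SE 0.38, adjusted p = 0.00478). The difference was -2.34 with the day 7 controls alone as the reference and -2.25 with those of day 21. When the spread was estimated from only the arrays compared, the adjusted p was 0.0573 and the call was lost.

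Hey1 was also measured by 1 probe set, 1415999_at. Intensities were 258, 246 and 128 in fetal liver. Control arrays gave 1862, 3109.6 and 2441 on day 7 and 5306, 3645, 2188 and 933 on day 21. The fetal arrays were again below all 7 controls, the nearest of which was replicate 4 of day 21. Mean log2 intensity was 7.65 ± 0.57 (SD, n = 3) in fetal liver and 11.24 ± 0.37 (SD, n = 3) and 11.29 ± 1.09 (SD, n = 4) in control on day 7 and day 21. Its log2 difference was -3.62 (SE 0.60, adjusted p = 0.0047). Its call was kept under every alternative run, with an adjusted p of at most 0.0301, without fetal replicate 3.

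**Figure D1:**
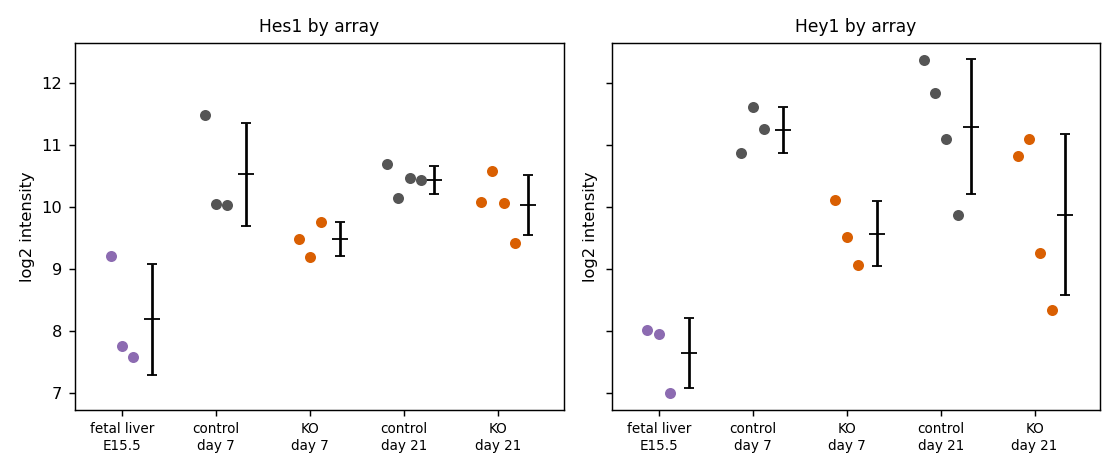
Log2 intensity of Hes1 (left) and Hey1 (right) on each array, by group; points are arrays, and the horizontal mark with bars is the group mean ± SD (n = 3 or 4). Fetal liver arrays lie below all adult control arrays for both genes, KO arrays of day 7 lie below the controls of that day, and KO and control overlap on day 21.

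The receptor Notch1, the member of the family best known in lymphoid cells, was measured by 2 probe sets. On 1418633_at the fetal intensities were 411, 730.1 and 698. The controls had 354, 177 and 304 on day 7 and 90.7, 231, 58.7 and 59.5 on day 21. All fetal arrays were above all control arrays, and 3 of the 4 controls of day 21 were lower than any other array. The log2 difference was 1.92 (SE 0.40, adjusted p = 0.0183). It was 1.15 (adjusted p = 0.268) with day 7 controls alone as the reference and 2.68 (adjusted p = 0.00508) with those of day 21. The call was also lost without fetal replicate 2 (adjusted p = 0.0881) or 3 (0.0757), and with only the arrays compared (0.124).

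The other Notch1 probe set, 1418634_at, was not called. Its intensity was 227, 514 and 583 in fetal liver, 304, 295 and 215 in control on day 7 and 245, 175, 94.975 and 216 on day 21. Fetal replicate 1 fell among the controls, while replicates 2 and 3 were above all of them. The difference was 0.92 (SE 0.35, 95% confidence interval 0.17 to 1.68, adjusted p = 0.198). Both probe sets gave a positive difference, but the size of the Notch1 difference rests on the probe set read.

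Notch2, a second receptor of HSCs, overlapped between all groups on its brighter probe set, 1455556_at. Fetal intensities were 1608, 2519 and 2157, and those of control were 1868, 2221 and 2486 on day 7 and 2286, 2392, 2191 and 1832 on day 21. The fetal and control groups overlapped, with a difference of -0.08 (95% confidence interval -0.43 to 0.28). Its dimmer probe set ranged from 234 to 1475 over the 17 arrays. Notch3, a receptor best known from vascular smooth muscle, was dim, at 34.4 to 156 on 1421965_s_at and 16 to 125 on 1421964_at.

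**Figure D2:**
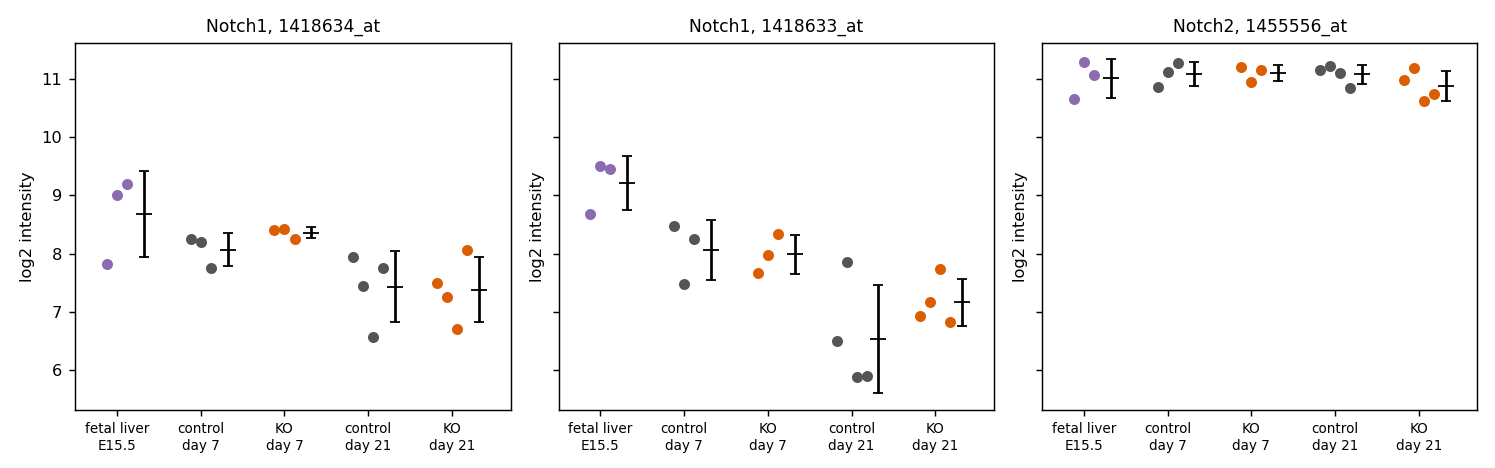
Log2 intensity of Notch1 on both of its probe sets and of Notch2 on 1455556_at by array and group; points are arrays and the marks with bars are group means ± SD (n = 3 or 4). On 1418633_at all fetal arrays lie above all adult arrays, on 1418634_at 1 fetal array lies among the adult controls, and Notch2 overlaps in all groups.

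None of the ligand genes, Rbpj or Dtx1 was called in the fetal comparison. Jag1, a ligand of the Jagged family, had 82.6, 85.1 and 49.5 in fetal liver on 1421105_at, its brightest probe set. Its controls had 61.8, 90.2 and 62.5 on day 7 and 555, 127, 83.3 and 83.5 on day 21. The fetal and day 7 values overlapped, and control replicate 1 of day 21 stood alone on this probe set. On 1421106_at that array had 134.9 while control replicate 3 of day 21 had 861, and on 1434070_at that array was at 16. Jag2 lay between 84.5 and 346 on 1426430_at over all arrays and Dll1, a Delta ligand, between 24.4 and 120. Rbpj had a mean log2 intensity of 7.12 ± 0.52 (SD, n = 3) in fetal liver and 7.15 ± 0.98 (SD, n = 3) and 7.20 ± 0.74 (SD, n = 4) in control on day 7 and day 21, on 1448957_at. Dtx1, which encodes a ubiquitin ligase of the Deltex family that binds Notch receptors, was near the lowest deposited value: 23.7 to 46.0 on 1425822_a_at, and at 16 on 16 of 17 arrays on 1458643_at. Over the 7 members other than Hes1, Hey1 and Notch1, the differences on the brightest probe set ran from -0.67 to -0.05. Their confidence intervals together reached from -1.68 to 0.85, with a smallest adjusted p of 0.542 (limma). Further probe sets of these members, none of them called, ran from -1.19 (Jag1 on 1434070_at) to 0.32 (Jag2 on 1426431_at).

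Across all 19 member probe sets the fetal difference was negative for 15, positive for 3 and 0 for 1, a Dtx1 probe set at the lowest value on all arrays compared, with a median of -0.27. Of all probe sets tested 50.5% were negative, with a median of -0.0032. Groups did not overlap for 3 of the 19, which were the 3 called, against 5.58% of all probe sets.

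The levels of several marker lists moved with the fetal results, and their part in these results was not tested. In bulk samples, fewer cells of a type and less RNA per cell cannot be told apart. All 7 immediate-early genes, which respond within minutes to stimulation or handling of cells, were called lower in fetal liver (median -1.96). Their summed intensity was 10130.0, 5710.3 and 6019 on the fetal arrays, against 33421 to 37493 in control on day 7 and 22455 to 31288 on day 21. The fetal array with the highest immediate-early sum, replicate 1, also had the highest Hes1 of the 3.

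Of 10 endothelial genes, 6 were called higher in fetal liver and all had a positive difference (median 2.70). Their summed intensity was 2426, 10744 and 14649 on fetal replicates 1, 2 and 3, and 650.3 to 1192 on the 7 controls. Cdh5, which encodes VE-cadherin, had a difference of 4.37 and Lyve1, a marker of liver sinusoid and lymphatic endothelium, 5.63. Fetal replicate 1, with the lowest endothelial sum of the 3, had the lowest Notch1 on both probe sets. On that array Hes1 and Hey1 were at 591 and 258, below the lowest control at 1048 and 933.

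Of 6 hepatocyte genes 2 were called higher, with sums of 709.9, 11006 and 7291 in fetal liver against 327 to 1036 in control. Of 8 macrophage genes 2 were called higher, as were 1 of 7 stromal and 3 of 5 erythroid genes. The 6 progenitor genes had a median of 1.28, with 0 called by limma and 2 at an unadjusted p under 0.05. On fetal replicates 1, 2 and 3 the macrophage sums were 3874, 1799 and 2189, and the erythroid sums 5028, 4550.5 and 2834. The progenitor sums were 5178, 2280 and 1459, so that fetal replicate 1 was the highest fetal array for each of these lists. It was the lowest for the stromal list, at 345.8 against 1286 and 1155. None of 6 T cell and 3 B cell genes was called (limma). At an unadjusted p under 0.05 there was 1 T cell and 0 B cell gene, and Cd3e was at the lowest value on all fetal and day 7 control arrays.

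**Figure D3:**
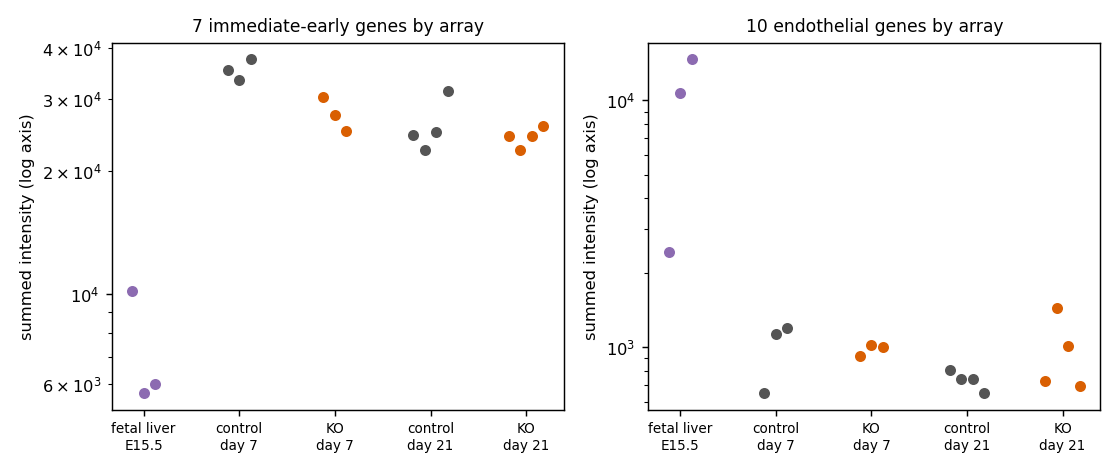
Summed intensity (log axes) of 7 immediate-early genes (left) and 10 endothelial genes (right) on each array, by group. Fetal arrays are lowest for the immediate-early sum and highest for the endothelial sum, and fetal replicate 1, the leftmost fetal point, lies nearest to the adult arrays in both.

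In the knockout no member passed the test, and the values nearest to it were those of Hey1. On day 7, 0 of 19 probe sets were called by limma and 2 had an unadjusted p under 0.05, those of Hey1 and Hes1. The background was 0.0025% called, and 6.69% with an unadjusted p under 0.05. Hey1 was 1103, 733 and 536 in KO on day 7, and all 3 arrays were below the lowest control of that day, 1862. The mean log2 intensity was 9.56 ± 0.52 (SD, n = 3) in KO, a difference of -1.68 from control (SE 0.71, 95% confidence interval -3.21 to -0.14, adjusted p = 0.699).

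Hes1 was 718, 586 and 865 in KO on day 7, again below all 3 controls. Its difference was -1.04 (SE 0.45, 95% confidence interval -2.02 to -0.07, adjusted p = 0.717), and -0.56 without control replicate 1. Notch1 on 1418634_at was 338, 343 and 305 in KO, just above the controls at 215 to 304, with a difference of 0.29 (adjusted p = 0.985). On 1418633_at KO and control overlapped, with a difference of -0.07. KO and control did not overlap for these 3 of 19 probe sets, a share close to the background of 13.0% of all probe sets. On their brightest probe sets the other 7 members had differences between -0.32 and 0.53 and a smallest adjusted p of 0.934. Their further probe sets, none of them called, ran from -1.09 (Notch3 on 1421964_at) to 0.94 (Rbpj on 1418114_at).

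On day 21, 0 of 19 member probe sets were called by limma and 1 had an unadjusted p under 0.05, against 0.03% and 9.35% of all probe sets. Hey1 was 1799.6, 2178, 612 and 324 in KO. The KO and control ranges overlapped, and the arrays of each group were spread over more than a 5-fold range. Each KO array was below the control array of the same replicate number, though it is not known that these numbers pair samples. The difference was -1.42 (SE 0.62, 95% confidence interval -2.75 to -0.09, adjusted p = 0.506). It was -0.90 without KO replicate 4.

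Hes1 on day 21 was 1080.4, 1529, 1065 and 680.5 in KO, overlapping control. Its difference was -0.40 (SE 0.39, 95% confidence interval -1.24 to 0.44, adjusted p = 0.799). Notch1 had -0.05 on 1418634_at and 0.63 on 1418633_at (adjusted p = 0.686). The differences were negative for 14 of 19 probe sets, with 46.0% negative among all probe sets, and no member's groups were apart, against a background of 5.16%. On their brightest probe sets the other 7 members had differences between -0.42 and -0.06 and a smallest adjusted p of 0.753. Their further probe sets, none of them called, ran from -1.36 (Jag1 on 1421106_at) to 0.50 (Notch2 on 1451889_at).

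Averaged over both days, each KO group against its own control, Hey1 had a difference of -1.55 (SE 0.47, 95% confidence interval -2.56 to -0.53, unadjusted p = 0.00576, adjusted p = 0.254, limma). Hes1 had -0.72 (SE 0.30, 95% confidence interval -1.37 to -0.08, adjusted p = 0.407). By limma 0 of 19 were called and 2 had an unadjusted p under 0.05, against 0.0275% and 10.7% of all probe sets. The KO difference of day 21 minus that of day 7 was 0.26 for Hey1 (95% confidence interval -1.77 to 2.29) and 0.64 for Hes1 (-0.65 to 1.93). No member was called in that test by limma, 0 had an unadjusted p under 0.05, and the background was 0.0025% called.

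**Figure D4:**
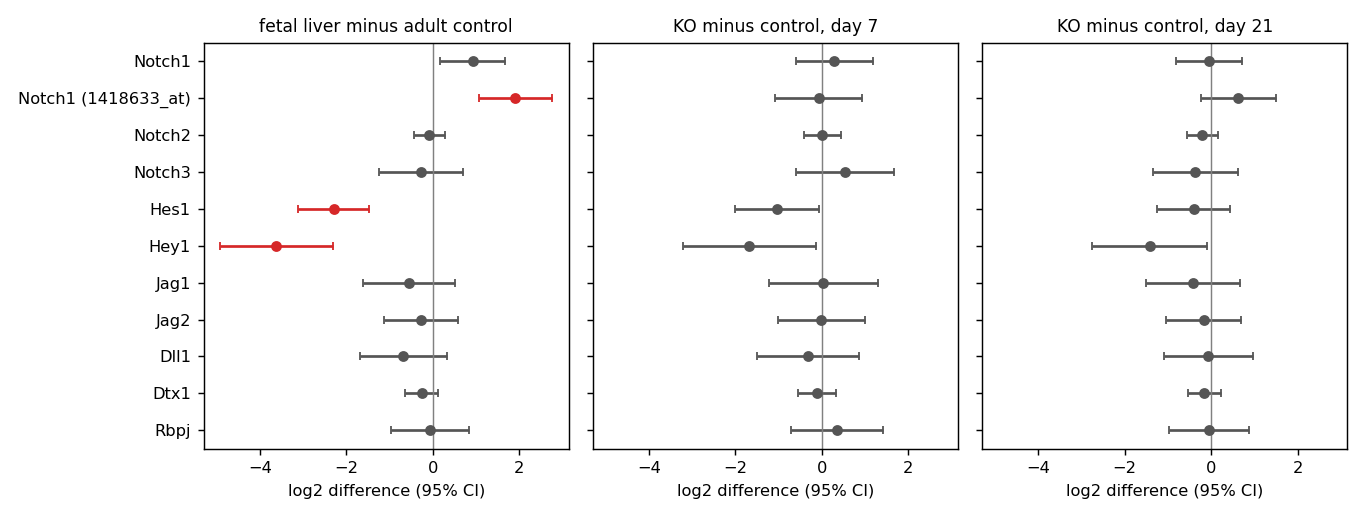
Log2 difference with 95% confidence interval for each member on its brightest probe set, and for Notch1 also on 1418633_at, in fetal liver against adult control and in KO against control on each day; red marks an adjusted p under 0.05. In the fetal comparison Hey1 and Hes1 lie left of 0 and Notch1 on 1418633_at right of it, and no KO difference is red.

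The summed intensity of 6 HSC markers was lower on the KO arrays of day 7 than in control, at 3361 to 3679.7 against 5543 to 7016. These control sums hold Ctnnal1 values of 83.91 to 1614. In KO on day 7 Hlf was 1250 to 1596 against 2516 to 2935 in control, and Mecom 807 to 945.5 against 993.7 to 1941. For Procr, Tek, Fgd5 and Ctnnal1 the KO and control arrays of day 7 overlapped. On day 21 the sums were 2336 to 4832 and 4378 to 6031. No gene of the list was called in either comparison by limma, and 2 had an unadjusted p under 0.05 on each day. Hlf, an HSC transcription factor gene, had -0.99 on day 7 and -0.65 on day 21. On each day 1 of the 6 genes was higher in KO. On day 7 it was Tek, at 149.1 to 450.3 in KO against 72.84 to 232 in control. On day 21 it was Ctnnal1, at 121 to 212.9 in KO against 45.16 to 119.6 in control. Of 5 erythroid genes, none was called in KO by limma and 1 had an unadjusted p under 0.05 on each day, with a median difference of 1.86 on day 7 and 1.27 on day 21. The immediate-early sums were 25032 to 30397 in KO on day 7, all below the 33421 to 37493 of control, and 1 of the 7 genes was higher. On day 21 the sums overlapped, at 22480 to 25817 in KO and 22455 to 31288 in control. Immediate-early genes had a median difference of -0.34 on day 7 and 0.19 on day 21, and none was called by limma or had an unadjusted p under 0.05. The part of these markers in the Hey1 and Hes1 values was not tested.

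Ordered by group mean, Hes1 was highest in control of day 7 (10.52), then control of day 21 (10.43), KO of day 21 (10.03 ± 0.48, SD, n = 4), KO of day 7 (9.48 ± 0.28, SD, n = 3) and fetal liver (8.19). Hey1 ran from control of day 21 (11.29) and day 7 (11.24) through KO of day 21 (9.87 ± 1.30, SD, n = 4) and day 7 (9.56) to fetal liver (7.65). For both genes the difference between the control groups was small beside its error, at -0.09 (SE 0.42) for Hes1 and 0.05 (SE 0.67) for Hey1, day 21 minus day 7. The arrays of the KO groups of both days overlapped for both genes. Notch1 on 1418633_at was 1.53 lower on the log2 scale in control of day 21 than of day 7 (SE 0.44, unadjusted p = 0.00378, adjusted p = 0.384) and did not pass. No member was called between the control groups by limma, where 1 had an unadjusted p under 0.05 and the background was 0.05% called.

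Fetal liver was also set against the mean of both KO groups, a comparison added after the data were seen. By limma 0 of 19 were called and 4 had an unadjusted p under 0.05, against 1.96% and 13.3% of all probe sets. Hes1 had -1.57 (SE 0.38, adjusted p = 0.0558), with fetal replicate 1 at 591 just above the lowest KO array at 586. Hey1 had -2.07 (SE 0.60, adjusted p = 0.116), with all fetal arrays below all KO arrays. Notch1 on 1418633_at had 1.64 (SE 0.40, adjusted p = 0.0536), with all fetal arrays above all KO arrays. Those were the 2 of 19 probe sets without overlap, against 6.65% of all probe sets. Because the fetal arrays enter both comparisons, these values are not separate evidence.

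Other genes of the pathway were taken from lists by role that held 72 genes, of which 65 were tested. In the fetal comparison 2 rose and 2 fell, beside the 3.07% called among all probe sets, and the median difference was 0.08. These genes were read by 1 probe set each, and a fit with 1 probe set per gene called 613 of 16784. Cdkn1a, which encodes the cell cycle inhibitor p21 and is a Notch target in keratinocytes, was 259, 111 and 115 in fetal liver, 1902 to 2186 in control on day 7 and 1007 to 1523 on day 21. Its log2 difference was -3.43 (SE 0.29, adjusted p = 1.5e-05). Gata2, an HSC transcription factor gene that Notch activates in the embryo, was 1001, 722 and 1126 in fetal liver and at least 2288 on all control arrays. Its log2 difference was -1.59 (SE 0.19, adjusted p = 3.1e-04). For both genes the groups were far apart, and leaving out any 1 of the 10 arrays compared did not remove the call.

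Dlk1, a non-canonical Notch ligand gene that is imprinted and expressed in fetal liver progenitors, rose by 3.77 (SE 0.76, adjusted p = 0.0154). Its intensity was 98.7, 893 and 881 on the fetal arrays, 21.7 to 97.4 in control on day 7 and 16 to 39.8 on day 21. Fetal replicate 1, which also had the lowest hepatocyte sum, lay close to the highest control. Hdac1, a histone deacetylase gene of Notch co-repressor complexes, rose by 1.31 (SE 0.27, adjusted p = 0.016) and was 341 to 1191 in control and 1461 to 2187 in fetal liver. Both calls were lost without fetal replicate 2 (adjusted p = 0.0895 for Dlk1 and 0.079 for Hdac1) or replicate 3 (0.081 and 0.069), with only the arrays compared (0.0779 and 0.122), and against day 7 controls alone (0.0981 and 0.153).

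By role, the fetal calls were 1 of 5 further receptors and ligands, 0 of 6 glycosyltransferases, 0 of 4 genes of ligand endocytosis, 0 of 8 of receptor cleavage, 0 of 7 nuclear co-activators, 1 of 11 co-repressors, 0 of 10 genes of turnover and inhibition, 0 of 6 further HES and HEY genes and 2 of 8 other targets. At an unadjusted p under 0.05 there were 15 of the 65, against 15.7% of all probe sets and 2815 of 16784 with 1 probe set per gene (limma). Notch4, an endothelial receptor gene, had a difference of 1.49 (adjusted p = 0.0614) from intensities of 20.01 to 88.4 in fetal liver and 16 to 28.1 in control. Aph1b, which encodes a subunit of gamma-secretase, had 2.16 (adjusted p = 0.0551), and Ep300, a histone acetyltransferase gene, 1.18 (adjusted p = 0.121). Tle3, a co-repressor gene of the Groucho family, had -1.29 (adjusted p = 0.0662), Mfng, which modifies Notch receptors with sugars, -0.73 (adjusted p = 0.24), and Hes5, another HES target, -0.39 (adjusted p = 0.206).

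None of the 65 genes was called by limma in KO. At an unadjusted p under 0.05 there were 5 on day 7, 8 on day 21 and 9 over both days. All probe sets had 6.69%, 9.35% and 10.7%. With 1 probe set per gene there were 1128, 1690 and 1961 of 16784. Dlk1 was 151, 355, 43.5 and 153 in KO on day 21, all above the controls, 3 of which were at the lowest value. Its difference was 2.77 (SE 0.77, adjusted p = 0.276). On day 7 Dlk1 overlapped, at 18.8 to 47.2 in KO and 21.7 to 97.4 in control. Cdkn1a was 433 to 671 in KO on day 7, below all controls of that day, with a difference of -1.87 (adjusted p = 0.152). On day 21 Cdkn1a overlapped, at 836 to 1911 in KO and 1007 to 1523 in control. Gata2 overlapped on both days, with KO at 2168 to 2840 on day 7 and 2087 to 3336 on day 21. Its controls were at 2421 to 3426 and 2288 to 2970. Furin, the protease gene for receptor maturation, had -1.15 on day 7 (adjusted p = 0.728). On day 21 Kat2b, a histone acetyltransferase gene, had -1.04 (adjusted p = 0.39), Hdac1 1.03 (adjusted p = 0.251), Itch, a ubiquitin ligase gene, 0.84 (adjusted p = 0.365) and Numbl, a relative of the Notch inhibitor Numb, 0.40 (adjusted p = 0.367). Poglut1, which adds glucose to Notch receptors, had 0.99 over both days (adjusted p = 0.462). Against KO, fetal liver had 3 of the 65 called, all lower. Of all probe sets 1.12% were called lower, and 225 of 16784 with 1 probe set per gene. The 3 were Cdkn1a at -2.45 (adjusted p = 3.9e-04), Gata2 at -1.44 (adjusted p = 8.4e-04) and Myc, a Notch target in T cells, at -1.06 (adjusted p = 0.0317).

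Among 9878 genes above the median level, those whose log2 values were most like Hes1 over the 17 arrays were Dnajb9, an endoplasmic reticulum chaperone gene (Pearson r = 0.923), Cdkn1a (0.907), Maff, a small MAF factor gene (0.904), Spry2, an antagonist of receptor tyrosine kinase signalling (0.892), and Fam110c (0.887). Hey1 followed at rank 62 with r = 0.792, which was 0.555 over the 14 adult arrays and 0.272 for deviations from the group means. Notch1 on 1418634_at had r = -0.636, Notch2 -0.121, Rbpj -0.088, Jag1 0.29 and Jag2 0.267. Over the 14 adult arrays the values were, in that order, -0.271, 0.0101, -0.407, 0.123 and 0.17. For deviations from the group means they were -0.411, -0.356, -0.161, 0.0505 and 0.162. The arrays share groups, so these correlations mix group levels with variation within groups. The 5 most similar genes were chosen for their r over the 17 arrays, so a lower r by another measure can follow from that choice. Their r was 0.703 to 0.762 over the 14 adult arrays and 0.623 to 0.763 for deviations from the group means.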

How the data were processed

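Transcripts of sorted HSCs were measured on 17 Affymetrix arrays. The deposited values are intensities on a linear scale, 1 for each of 45101 probe sets, with a lowest value of 16. RMA is the one tool named in the submitters' processing notes, without role or version, and the sources used here do not give how the authors scaled the arrays. The log2 of the deposited intensity was taken with no pseudocount. Arrays give no count depth, and their number limits the precision. No 2 arrays held identical values (highest r 0.952).

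Gene names came from GEO's platform annotation: 34958 probe sets had 1 gene, 932 several, 9160 none and 64 were controls. Identifiers of 34754 matched the RefSeq table (GRCm38.p6). With limma 3.58.1 (R 4.3.3), lmFit estimated the 5 group means from all 17 arrays and eBayes moderated the spread (12 residual and 1.41 prior df), over the 40023 probe sets that were no controls and not at 16 on every array. All adjusted p-values are limma's with Benjamini-Hochberg adjustment over these probe sets, and called means under 0.05. The script was tested on simulated data.

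The 10 members and all gene lists were chosen with earlier results of these data known. Members were always named, by the brightest probe set (highest mean log2). Other pathway genes were named where called. Also named were those among the up to 2 smallest unadjusted p-values under 0.05 of a role list in the KO and fetal comparisons. Hdac1, Dlk1, Cdkn1a and Gata2 values in KO follow from their being named. Genes like Hes1 were the 5 with the highest Pearson r. Some genes of the pathway and marker lists were not analysed here. Of the pathway lists, Hey2 and Il2ra were at the lowest value on all arrays. Alternatives covered the unit of the fit, the arrays used, scaling, filters, a pseudocount of 32, the prior, array weights, a replicate block, a covariate and leaving out arrays.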

Additional observations from a re-analysis of the deposited data

Results flagged for a closer look

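In 8 of 37 groups of 4 arrays tested, 1 array of a member probe set lay far from the other 3, by Dixon's ratio of gap to range on the log2 scale. In 3 of the 8 the other 3 arrays were all at the lowest value, where any reading above it gives the highest ratio, so that the ratio tests nothing there. Of the other 34 groups 5 stood out so, where chance flags about 1 in 20 of separate groups. These groups share arrays, and some share a gene, so the 5 cannot be weighed against that rate. Notch3 on 1421965_s_at was 156 on control replicate 1 of day 21 against 38.5 to 41.1 on the others, and on 1421964_at that same array had 61.5 with the others at 16. On KO day 21, Notch3 on 1421964_at was 36.6 on replicate 2 with the others at 16. Dtx1 on 1425822_a_at was 46.0 on control replicate 3 of day 21 against 23.7 to 25.9, and on 1458643_at it was 51.6 on KO replicate 4 of day 21 with the others at 16. Rbpj on 1448957_at was 315 on control replicate 3 of day 21 against 107 to 122. Rbpj on 1418114_at was 70.0 on control replicate 4 of day 21 against 242 to 299, and 29.9 on KO replicate 4 against 138 to 188. All of these groups are of day 21, since groups of 3 arrays were not tested.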

How the results depend on the processing

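The number of arrays limits every member value, and dim probe sets near 16 carry little order. In fetal liver against control, Hes1 ranged from -2.8 to -1.99 and Hey1 from -3.85 to -3.29 with 1 array left out (2 to 3 probe sets called), and 1 was called with only the arrays compared, which left fewer arrays to estimate the spread. No member was called in any alternative of the KO, control or interaction comparisons, leave-one-out included (0 to 0). Against KO, fetal liver had 1 called with 1 probe set per gene, only the arrays compared, median centring, quantile normalization, a pseudocount of 32, array weights or without the farthest controls (control replicate 1 of day 7 and replicate 3 of day 21, chosen after seeing the data), 2 above the median level, with the replicate block or the covariate (share of probe sets at 16), and 0 to 1 with 1 array left out; the cause was not tested.

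Deviations of same-numbered arrays correlated at -0.0301 to 0.0799 over 31 pairs. Such low values over all probe sets cannot exclude that replicate numbers pair some samples. With the replicate block, fetal Hey1 was -3.86 (adjusted p = 8.4e-05), Hes1 -2.34 (0.0056), and 3 member probe sets were called. Hey1 in KO over both days was -1.55 (adjusted p = 0.0897), with an SE of 0.224 with and 0.47 without the block. Calls among all probe sets were 1063 with and 1228 without the block in the fetal comparison. They were 0 against 12 in KO on day 21 and 0 against 11 over both days.

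These sign changes all concern values that were not called, and the cause was not tested. On day 7 in KO, Notch2 was -0.05 after centring, -0.015 by quantiles, -0.042 with weights, -0.044 with the covariate and -0.096 without the farthest controls; Jag1 was -0.031, -0.012, -0.12 (covariate) and -0.061 (farthest controls); Jag2 was 0.013 (pseudocount) and 0.21 (covariate); Dtx1 was 0.036 (covariate), Rbpj -0.096 (farthest controls), and Notch1 on 1418633_at 0.064 (weights) and 0.13 (farthest controls). On day 21 with the covariate, Hes1 was 0.092, Jag2 0.18, Dtx1 0.082 and Rbpj 0.19; without the farthest controls Jag2 was 0.064, Dtx1 0.062 and Rbpj 0.31, and Rbpj was 0.046 with weights. With the covariate, Notch1 over both days was -0.049 and, on 1418633_at, -0.12, and Rbpj in fetal liver was 0.0084. With 1 array left out, the day 7 ranges were -0.096 to 0.11 for Notch2, -0.072 to 0.89 for Notch3, -0.21 to 0.23 for Jag1, -0.45 to 0.33 for Jag2, -0.096 to 0.87 for Rbpj and -0.37 to 0.13 for Notch1 on 1418633_at. The day 21 ranges were -0.33 to 0.18 for Notch1, -0.54 to 0.13 for Notch3, -0.7 to 0.21 for Jag1, -0.52 to 0.064 for Jag2, -0.5 to 0.39 for Dll1, -0.26 to 0.062 for Dtx1 and -0.21 to 0.31 for Rbpj. Notch1 over both days ranged from -0.021 to 0.23, the difference between days for Hey1 from -0.22 to 0.77, and fetal Notch2 and Rbpj from -0.22 to 0.1 and -0.27 to 0.25.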
